A study of Mus musculus with 9 samples.

Results

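The immediate early genes described here are Fos, Fosb, Jun, Junb, Egr1, Egr2, Ier2, Atf3, Dusp1 and Nr4a1, 10 of the 34733 gene names carried by the probes of the arrays. Each was taken from the probe that is not a control and carries the gene's symbol, and each had 1 such probe of 60 bases. The Fos probe is printed in 10 spots per array and the other 9 probes in 1 spot. Per the files, in build mm9, the probes lie at chr12:86817900-86817959 (plus strand) for Fos, chr8:87501881-87501940 (minus) for Junb, chr10:67004798-67004857 (plus) for Egr2 and chr15:101105071-101105130 (plus) for Nr4a1; which exon or untranslated region each lies in was not analysed here. Transcript levels were measured on 9 single-colour Agilent mouse arrays. The groups were 3 arrays of brain tumour tissue labelled EZH2 knocked-out on the MADM background, 2 of glioma cells of the MADM background, and 2 each of astrocytes and neural stem cells (NSC) labelled wild type and C57BL/6J. MADM, mosaic analysis with double markers, makes rare marked mutant cells by recombination between chromosomes. The labels give no genotype for the glioma cells, and no age, sex or culture condition for any group. Tumour tissue with intact EZH2 was not analysed here, so the knock-out, the tissue and the host cells in it cannot be told apart in a comparison of tissue with cells.

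The labels do not say whether arrays of a group came from separate animals or cultures. So p-values measure the spread between these arrays, which may be technical in the glioma cell and NSC groups. All 6 cell arrays were on 1 slide and the 3 tissue arrays on another, scanned apart, so slide and scan cannot be told apart from tissue against cells. The share of spots well above background was 60.1% to 65.7% per array. Sex-linked transcripts differed between arrays of 1 group. Ddx3y, a Y-linked gene, was at -5.76 and 1.35 on astrocyte arrays 1 and 2, and at -7.27, 0.29 and -1.57 on tissue arrays 1 to 3. Eif2s3y, also Y-linked, was at -6.13 and 0.66 on the astrocyte arrays, and at -7.44, 0.07 and -2.57 on the tissue arrays. So the 2 astrocyte arrays were not repeats of 1 sample, and tissue array 1 was not a repeat of array 2 or 3.

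Immediate early genes are switched on within minutes of a growth factor, synaptic or stress signal, from factors already in the cell and without new protein. Serum response factor with its ternary complex partners acts at CArG boxes, and CREB acts at cyclic AMP response elements, whose core is TGACG. Most of the genes encode transcription factors, and phosphatases and RNA-binding proteins made in the same wave then shut the signal off. In brain they are known as markers of neuronal activity and of recent handling of cells or tissue.

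RefSeq promoter windows were used for 8 of the 10 genes. Ier2 and Egr1 are named only. Those of 5 genes are shown because the results turn on them. Fos and Junb fell together against astrocytes, and Nr4a1 did not follow them. Egr2 stood below astrocytes in NSC (-4.32, not called) and overlapped them in glioma cells and tissue. Dusp1 encodes the phosphatase that ends the response. Each window is the 250 bases before the annotated start in build GRCm38.p6, written 5′ to 3′ on the strand of the gene. Capitals mark TGACG on either strand (CGTCA where it lies on the other), its palindrome TGACGTCA, TATAA and, by name, the CArG box. The windows are chr12:85473640-85473889 on the plus strand for Fos, chr8:84978749-84978998 on the minus strand for Junb, chr10:67537619-67537868 on the plus strand for Egr2, chr15:101266596-101266845 on the plus strand for Nr4a1 and chr17:26508473-26508722 on the minus strand for Dusp1.
Fos: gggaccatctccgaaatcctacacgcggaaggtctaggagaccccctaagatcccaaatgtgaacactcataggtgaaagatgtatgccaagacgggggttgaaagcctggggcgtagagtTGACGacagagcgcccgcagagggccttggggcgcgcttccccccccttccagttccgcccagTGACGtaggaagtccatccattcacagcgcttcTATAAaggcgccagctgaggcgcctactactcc
Junb: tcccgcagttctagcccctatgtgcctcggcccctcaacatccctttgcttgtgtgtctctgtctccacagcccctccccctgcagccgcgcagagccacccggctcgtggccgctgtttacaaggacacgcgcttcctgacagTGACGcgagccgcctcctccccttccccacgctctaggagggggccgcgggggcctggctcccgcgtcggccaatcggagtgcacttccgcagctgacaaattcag
Egr2: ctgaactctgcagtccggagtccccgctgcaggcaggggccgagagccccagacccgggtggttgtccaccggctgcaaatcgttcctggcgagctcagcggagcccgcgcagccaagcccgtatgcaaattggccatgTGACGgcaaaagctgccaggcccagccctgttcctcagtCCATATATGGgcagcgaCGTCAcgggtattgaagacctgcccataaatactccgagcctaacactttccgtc
Nr4a1: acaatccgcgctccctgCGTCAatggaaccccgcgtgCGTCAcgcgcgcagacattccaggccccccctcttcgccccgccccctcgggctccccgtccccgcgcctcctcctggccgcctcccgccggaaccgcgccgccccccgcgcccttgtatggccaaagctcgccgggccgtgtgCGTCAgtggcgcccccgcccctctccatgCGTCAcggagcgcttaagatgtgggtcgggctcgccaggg
Dusp1: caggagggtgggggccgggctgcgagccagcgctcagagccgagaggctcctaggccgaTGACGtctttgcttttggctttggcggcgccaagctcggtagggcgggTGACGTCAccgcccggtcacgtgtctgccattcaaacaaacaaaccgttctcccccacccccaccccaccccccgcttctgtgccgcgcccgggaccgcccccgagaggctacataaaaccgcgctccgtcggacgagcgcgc

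TGACG was searched on both strands. Nr4a1 held 4 matches, Dusp1 3, Fos and this Egr2 window 2 each, Junb, Atf3 and Fosb 1 each, and Jun 0. Of 27025 mouse promoter windows of the same length, 1 per gene and the first listed, 17.9% held at least 1 match and 0.696% held 3 or more. A pair of the Dusp1 matches overlap in 1 TGACGTCA, a motif found in 1.62% of all windows. The Egr2 window shown, chosen from 5, held a CArG box, 72 to 63 bases before the start, and 1.40% of all windows held one. That share takes the first listed window of each gene, by which rule 0 of the 8 genes held a CArG box. The Egr2 window with the lowest coordinates held 0 CArG boxes and 0 TGACG, and the other 7 genes' windows held 0 CArG boxes. Fos had a TATAA 33 to 29 bases before its start, a motif in 23.5% of all windows. The motif TGANTCA, the AP-1 site, was found in 0 of the 8 genes' windows and in 6.87% of all windows. GCGGGGGCG, the EGR site, was found in Fosb and Nr4a1 and in 2.56% of all windows. A match is a run of letters and not a measured binding site.

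**Figure D1:**
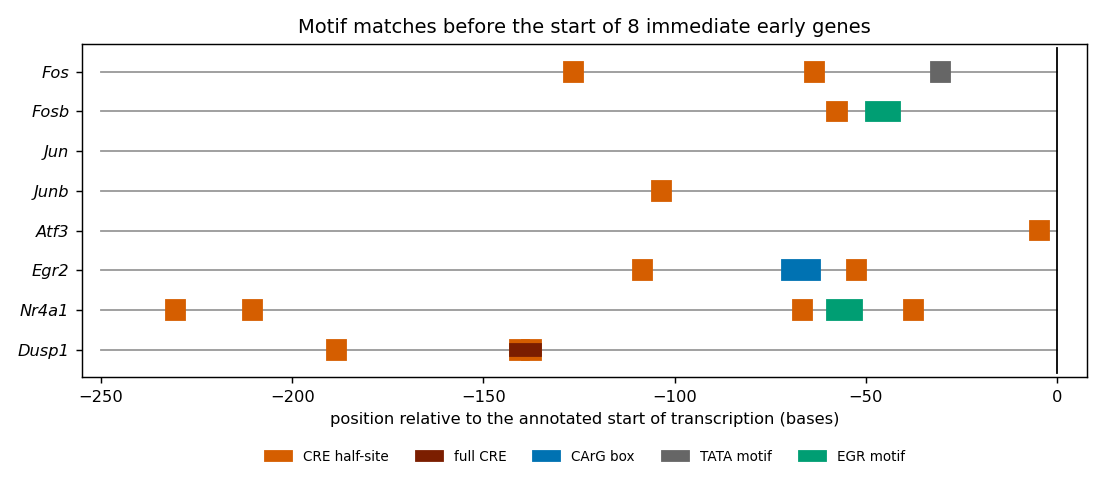
Motif matches in the 250 bases before the annotated start of 8 immediate early genes, with position in bases on the horizontal axis and 1 line per gene. Nr4a1 carries 4 matches to the TGACG half-site, Dusp1 3 including 1 full palindrome, and Jun 0; for Egr2, 1 of several windows is drawn.

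Levels below are log2 processed signals minus the array's 75th percentile, so 0 is the level of the probe at that percentile. They compare a gene between arrays, and not one gene with another. A gene was called changed when limma's Benjamini-Hochberg adjusted p, over all genes tested, was under 0.05 and the change was at least 2-fold. In these bulk samples fewer cells of a type and less RNA per cell cannot be told apart.

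**Figure D2:**
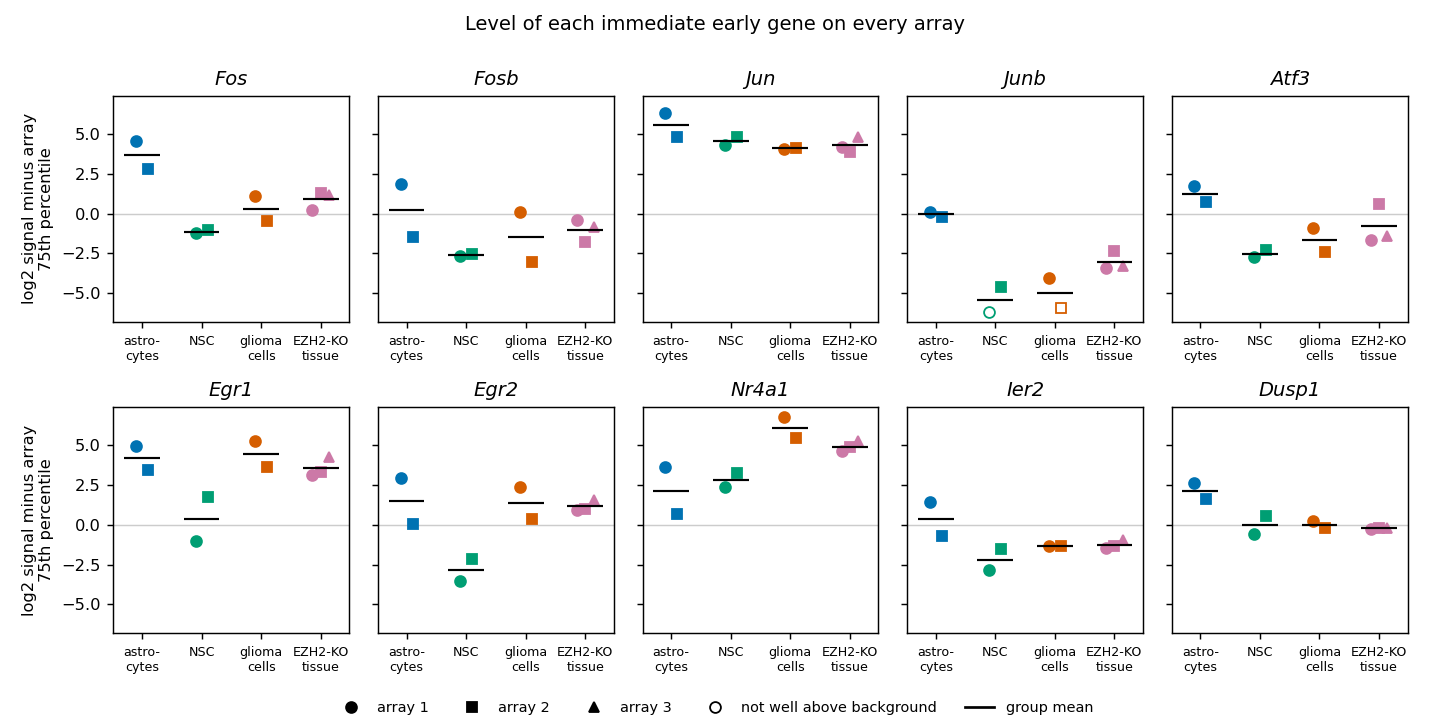
Level of each immediate early gene on every array: 1 panel per gene, group on the horizontal axis and log2 signal minus the array's 75th percentile on the vertical axis. Points are arrays, lines are group means and open points are not well above background. Fos, Junb, Atf3, Dusp1 and Ier2 are highest on both astrocyte arrays, and Nr4a1 on both glioma cell arrays.

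Fos encodes the founding partner of the AP-1 transcription factor. Its level was 4.58 and 2.83 in astrocytes, 1.09 and -0.46 in glioma cells, -1.22 and -1.06 in NSC, and 0.21, 1.27 and 1.19 in tumour tissue. Both astrocyte arrays lay above all 7 others, and both NSC arrays below them. Fos fell in glioma cells against astrocytes by 3.39 on the log2 scale, a 10.5-fold difference (SE 0.76; limma adjusted p = 0.0384). It fell in NSC by 4.84, or 28.7-fold (SE 0.76; limma adjusted p = 0.0190), and in tissue by 2.81, or 7.01-fold (SE 0.65; limma adjusted p = 0.0202). Tissue stood 2.03 above NSC with no overlap, which missed the threshold (limma adjusted p = 0.0675). On an array, the 8 to 10 Fos spots that were kept had an SD of 0.036 to 0.095.

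Junb encodes a Jun protein that pairs with Fos and is known to restrain Jun. It was at 0.13 and -0.24 in astrocytes, -4.06 and -5.93 in glioma cells, -6.18 and -4.63 in NSC, and -3.41, -2.36 and -3.31 in tissue. The astrocyte arrays stood highest, the tissue arrays next, and the glioma and NSC arrays overlapped each other at the bottom. Junb was not well above background on glioma array 2 and NSC array 1, the only such values among the 10 genes. It fell in glioma cells against astrocytes by 4.94, or 30.7-fold (SE 0.79; limma adjusted p = 0.0164), in NSC by 5.35, or 40.9-fold (SE 0.79; limma adjusted p = 0.0165), and in tissue by 2.97, or 7.84-fold (SE 0.67; limma adjusted p = 0.0187). With both dim values raised to the lowest signal well above background on their array, the differences from astrocytes were 22.0-fold for glioma cells and 33.1-fold for NSC. With normexp background correction they were 7.13-fold and 8.19-fold, both called (limma adjusted p = 0.00456 and 0.00512), and tissue was 5.21-fold below astrocytes (limma adjusted p = 0.00164). Among the cell groups Junb was well above background on all arrays only in astrocytes, where it was highest, and it was tested on that ground. With a filter that asks for a probe well above background on every array, Junb was not tested. Junb was higher in tissue than in NSC by 2.38, or 5.21-fold (SE 0.67; limma adjusted p = 0.0463), and 4.22-fold with the dim value raised. The difference between tissue and NSC was 0.66 with normexp background correction and was then not called (limma adjusted p = 0.165).

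Atf3 encodes a stress-induced bZIP factor of the same superfamily. Its levels were 1.75 and 0.72 in astrocytes, -0.89 and -2.41 in glioma cells, -2.72 and -2.31 in NSC, and -1.63, 0.61 and -1.41 in tissue. Tissue array 2 stood 2.24 above the lowest tissue array, the widest spread of the 10 genes among the tissue arrays. Atf3 fell in glioma cells against astrocytes by 2.89, or 7.39-fold (SE 0.63; limma adjusted p = 0.0353), and in NSC by 3.75, or 13.5-fold (SE 0.63; limma adjusted p = 0.0219). With normexp background correction the NSC difference was 8.34-fold and called (limma adjusted p = 0.0145). In tissue it stood 2.05 below astrocytes and missed the threshold (limma adjusted p = 0.0882). Without tissue array 2 that difference was -2.76 (limma adjusted p = 0.0219), and over the 9 fits that leave out 1 array it ran from -2.76 to -1.53 (limma adjusted p 0.0219 to 0.341), with 1 of the 9 calling it.

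Fosb, a paralogue of Fos, and Jun, the most studied partner of Fos in AP-1, did not pass in any comparison. Fosb was at 1.88 and -1.48 in astrocytes, 0.12 and -3.03 in glioma cells, -2.66 and -2.56 in NSC, and -0.40, -1.76 and -0.86 in tissue. Its arrays within astrocytes and within glioma cells differed by more than 3 on the log2 scale, so that those groups overlapped (glioma cells minus astrocytes -1.65, SE 1.44; limma adjusted p = 0.446). Jun was at 6.32 and 4.81 in astrocytes, 4.08 and 4.12 in glioma cells, 4.33 and 4.82 in NSC, and 4.22, 3.90 and 4.81 in tissue. Astrocyte array 1 was highest for Jun, and the other 8 arrays lay within 1 log2 unit (glioma cells minus astrocytes -1.46, SE 0.55; limma adjusted p = 0.119).

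Egr1 and Egr2 encode zinc finger factors that bind the GCGGGGGCG site, and NAB proteins restrain both. Egr1 was at 4.96 and 3.45 in astrocytes, 5.25 and 3.65 in glioma cells, -1.0 and 1.77 in NSC, and 3.11, 3.31 and 4.25 in tissue. Egr2 was at 2.95 and 0.04 in astrocytes, 2.38 and 0.34 in glioma cells, -3.51 and -2.15 in NSC, and 0.95, 0.99 and 1.55 in tissue. For both genes the NSC arrays were the lowest pair, and the other groups overlapped one another.

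Against NSC, tissue had higher Egr1 by 3.17, or 9.0-fold (SE 0.90; limma adjusted p = 0.0475), and higher Egr2 by 3.99, or 15.9-fold (SE 0.93; limma adjusted p = 0.0251). With normexp background correction Egr2 was 8.53-fold higher and called (limma adjusted p = 0.0366). The glioma cells stood as far above NSC, by 4.06 for Egr1 (SE 1.11) and 4.19 for Egr2 (SE 1.19), and missed the threshold (limma adjusted p = 0.190 and 0.205). NSC stood below astrocytes by 3.82 for Egr1 and 4.32 for Egr2, which also missed it (limma adjusted p = 0.0768 and 0.0689). Glioma cells minus astrocytes was 0.24 for Egr1 (95% interval -2.57 to 3.05) and -0.14 for Egr2 (-3.15 to 2.88), which leaves room for a change of several-fold in either direction.

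Nr4a1 encodes an orphan nuclear receptor induced with the others. It was at 6.78 and 5.46 in glioma cells, 4.63, 4.88 and 5.26 in tissue, 2.39 and 3.25 in NSC, and 3.65 and 0.66 in astrocytes. The order differed from that of Fos: both glioma arrays were highest, the tissue arrays next, and astrocytes and NSC overlapped below them. Nr4a1 rose in tissue against astrocytes by 2.77, or 6.81-fold (SE 0.83; limma adjusted p = 0.0479). Glioma cells stood 3.96 above astrocytes, a 15.6-fold difference with SE 1.06 that missed the threshold (limma adjusted p = 0.0578), and 3.30 above NSC (SE 1.06; limma adjusted p = 0.256). Without astrocyte array 1, the higher of that pair, the glioma difference was 5.46 and called (limma adjusted p = 0.0293). Without astrocyte array 2 it was 2.47 and not called (limma adjusted p = 0.125), and over the 6 fits that leave out 1 array, 1 of which called it, limma adjusted p was 0.0293 to 0.186.

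Dusp1 encodes a phosphatase that inactivates MAP kinases. Its levels were 2.63 and 1.62 in astrocytes, 0.21 and -0.17 in glioma cells, -0.56 and 0.53 in NSC, and -0.25, -0.19 and -0.17 in tissue. The astrocyte arrays were the highest pair, and the 3 tissue arrays lay within 0.083 of each other, the narrowest spread of the 10 genes there. Dusp1 fell in tissue against astrocytes by 2.33, or 5.03-fold (SE 0.42; limma adjusted p = 0.00808). Differences of similar size in glioma cells (-2.11, SE 0.53) and NSC (-2.14) just missed the threshold (limma adjusted p = 0.0503 and 0.0553). The glioma difference was called in 6 of its 10 other processing settings and in 0 of 6 fits that leave out 1 array (limma adjusted p 0.0502 to 0.181). The NSC difference was called in 4 of 10 and in 0 of 6 (limma adjusted p 0.0849 to 0.183).

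Ier2 encodes a small nuclear protein of less settled function. It was at 1.44 and -0.72 in astrocytes, -1.33 and -1.34 in glioma cells, -2.84 and -1.53 in NSC, and -1.43, -1.33 and -0.96 in tissue. Both astrocyte arrays lay above the other 7, but they were themselves 2.15 apart, and no comparison passed. The closest was NSC minus astrocytes at -2.54 (limma adjusted p = 0.0925).

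**Figure D3:**
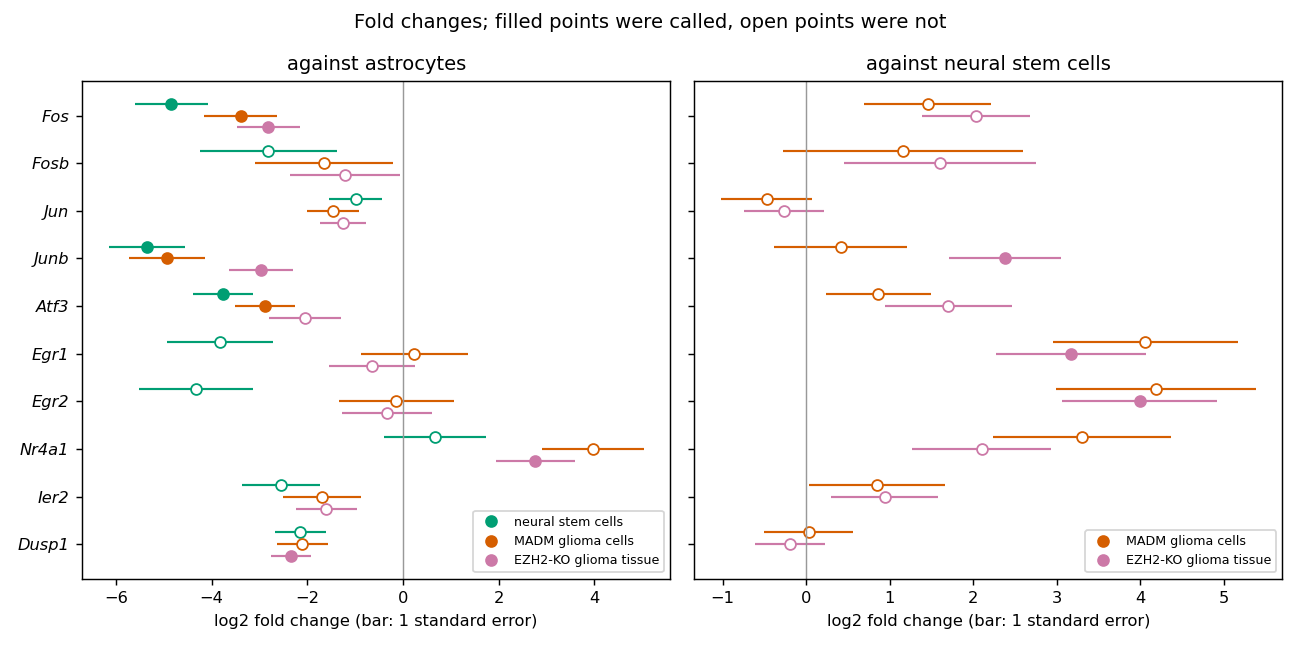
Log2 fold change of each immediate early gene, with bars of 1 standard error; NSC, glioma cells and tumour tissue against astrocytes on the left, and glioma cells and tissue against NSC on the right. Filled points were called; 10 of 13 calls are against astrocytes and 9 of those 10 are falls, the exception being Nr4a1 in tissue.

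Against astrocytes, the AP-1 genes Fos, Junb and Atf3 fell in both other cell groups. In glioma cells 3 of the 10 genes were called lower and 0 higher, beside 9.84% of all 24866 genes called lower and 9.01% called higher. Groups did not overlap for 6 genes below and 1 above astrocytes, beside 29.3% and 39.9% of all genes. The median difference over the 10 genes was -1.68, and 0.15 over all genes. In NSC 3 were lower and 0 higher, beside 7.85% and 6.75% of all genes, and 8 lay below astrocytes and 0 above without overlap, beside 26.7% and 39.5%. The median there was -3.28, and 0.21 over all genes. At an unadjusted limma p under 0.05, 6 genes passed for glioma cells and 7 for NSC. The share of all genes under that cut-off was not counted, so such counts, here and below, show no excess over all genes. Jun in glioma cells passed it at an unadjusted limma p of 0.0422, with a limma adjusted p of 0.119.

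In tumour tissue against astrocytes, Fos, Junb and Dusp1 fell and Nr4a1 rose. These 3 falls and 1 rise stand beside 12.4% and 10.6% of all 25397 genes, and groups did not overlap for 6 genes below and 1 above, beside 30.6% and 27.3%. The median was -1.43, and -0.06 over all genes. All 3 comparisons share the same astrocyte arrays, so a level particular to those arrays enters each of them.

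Against NSC, tissue was higher for Junb, Egr1 and Egr2 and lower for none of the 10 genes, beside 8.08% and 9.9% of all genes. Groups did not overlap for 8 genes above NSC and 0 below, beside 19.7% and 32.6% of all genes, and the median was 1.87, against -0.22 over all genes. In glioma cells against NSC 0 of the 10 were called by limma, beside 0.981% of all genes in either direction, and 3 passed at an unadjusted p under 0.05. Those were the genes with the largest differences, Egr1, Egr2 and Nr4a1. Groups did not overlap for 5 genes above NSC and 1 below, beside 20.2% and 25.8% of all genes.

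Between tumour tissue and glioma cells 0 of the 10 genes were called by limma, beside 16.9% of all genes in either direction, and 1 passed at an unadjusted p under 0.05. That gene was Junb, higher in tissue by 1.97 (SE 0.67; limma adjusted p = 0.0831). Groups did not overlap for Junb above and for Nr4a1 below (-1.20; limma adjusted p = 0.347), beside 21.4% and 33.7% of all genes. The median over the 10 genes was 0.15, and -0.16 over all genes.

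Each of the 13 calls was lost when certain single arrays were left out. In glioma cells against astrocytes, Fos was lost without glioma array 2, astrocyte array 1 or either NSC array (limma adjusted p 0.0458 to 0.129 over the 6 fits that leave out 1 array), Junb without either astrocyte array (0.0198 to 0.0755), and Atf3 without any array but glioma array 1 (0.0319 to 0.138). In NSC against astrocytes, Fos was lost without astrocyte array 1 or either NSC array (0.0225 to 0.0916), Junb without either astrocyte array or NSC array 1 (0.0165 to 0.0718), and Atf3 without any 1 of the astrocyte or NSC arrays (0.0204 to 0.0909). In tissue against astrocytes, Dusp1 was lost without astrocyte array 1 (0.00689 to 0.0515), Fos without that array or tissue array 1 (0.0184 to 0.118), Junb without either astrocyte array or tissue arrays 1 or 3 (0.0128 to 0.0948), and Nr4a1 without any array but astrocyte array 1 (0.010 to 0.216). In tissue against NSC, Egr2 was lost without any tissue or NSC array (0.0133 to 0.106), Junb without any array but a glioma one (0.0310 to 0.194), and Egr1 without any array but NSC array 2 (0.0346 to 0.193). All 13 called differences kept their direction in each of these fits, but their size moved.

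Leaving out 1 array moved the called folds by over 1.5 times in 10 of the 13 cases. In glioma cells against astrocytes, Fos was 5.71-fold lower without astrocyte array 1 and 19.2-fold without astrocyte array 2, and leaving out either glioma array also moved it by over 1.5 times. Without glioma arrays 2 and 1, Junb was 16.0-fold and 58.8-fold lower and Atf3 4.38-fold and 12.5-fold. In NSC against astrocytes, Fos was 15.7-fold lower without astrocyte array 1 and 52.6-fold without array 2, and Junb 23.9-fold without NSC array 1 and 69.8-fold without NSC array 2. In tissue against astrocytes, without astrocyte arrays 1 and 2, Fos was 3.82-fold and 12.8-fold lower and Nr4a1 19.2-fold and 2.42-fold higher. In tissue against NSC, without NSC arrays 1 and 2, Junb was 3.05-fold and 8.91-fold higher, Egr1 3.45-fold and 23.4-fold, and Egr2 9.95-fold and 25.4-fold. The exceptions were Atf3 in NSC (9.42-fold to 19.2-fold) and, in tissue, Junb (6.85-fold to 9.89-fold) and Dusp1 (3.54-fold to 7.15-fold), all against astrocytes.

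The arrays of a cell group differed widely in these genes, and mostly in 1 direction within a group. On astrocyte array 1 all 10 genes were higher than on array 2, where 51.2% of all genes were, and 9 of them were apart by over 1 on the log2 scale, beside 18.1% of all genes. The median difference was 1.63, with Fosb at 3.36, Nr4a1 at 2.98, Egr2 at 2.91 and Ier2 at 2.15. On glioma array 1, 9 of 10 were higher than on array 2, where 49.6% of all genes were, and 7 were apart by over 1, beside 17% of all genes. The median was 1.53. Ier2 and Jun were the glioma genes with little difference, at 0.012 and -0.039. In NSC 0 of 10 were higher on array 1, where 43.1% of all genes were, and 5 were apart by over 1, each lower on array 1, beside 21.2% of all genes apart by as much. The median was -0.97, with Egr1 furthest apart at -2.76.

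**Figure D4:**
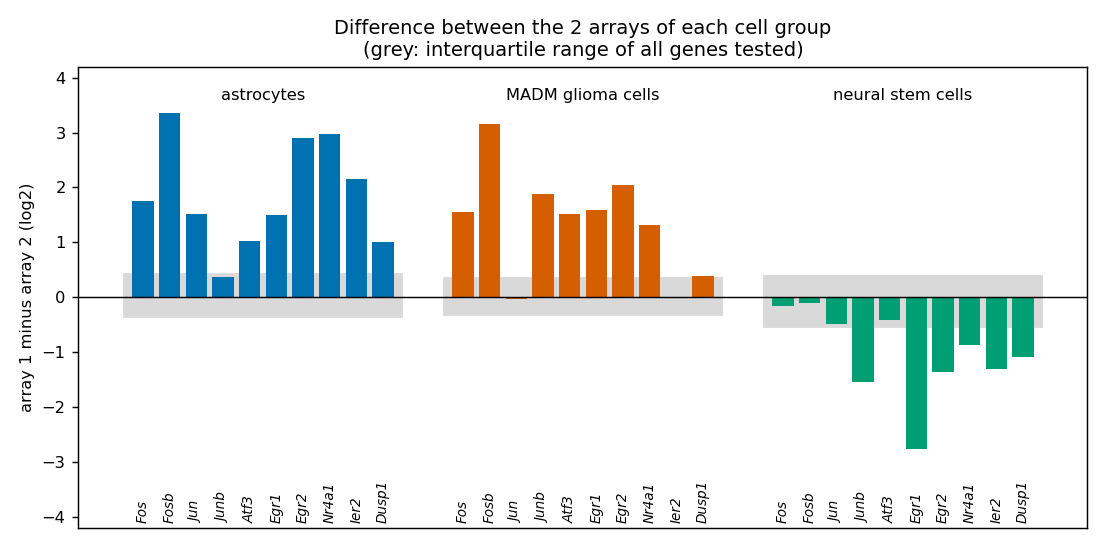
Array 1 minus array 2 for each immediate early gene in the groups with 2 arrays, in log2 units; the grey band is the interquartile range of all genes tested. All 10 bars are above 0 in astrocytes, 9 in glioma cells and 0 in NSC.

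Other measures moved between the same arrays. Of 26 other immediate early genes, 12 were higher on astrocyte array 1 and 12 on glioma array 1. Astrocyte markers, 13 in number, averaged 4.17 on astrocyte array 1 and 3.11 on array 2. For 11 fibroblast and meningeal markers the averages were 1.61 and 4.98, and for 16 microglia and macrophage markers 2.99 and 3.45. On NSC array 1 the astrocyte markers stood at 3.27, and on array 2 at 0.33, and the microglia and macrophage markers at -0.72 and -2.49, with 14 of 16 higher on array 1. Of the other immediate early genes 8 of 26 were higher on NSC array 1. On the glioma arrays 1 and 2, the 12 neural stem cell and radial glia markers stood at 0.031 and 2.05, with 3 higher on array 1. The fibroblast and meningeal markers stood at -1.63 and -2.86, and 9 heat shock genes at 2.69 and 4.24, with 1 higher on array 1. Median differences between the glioma arrays were -1.07, 1.61 and -0.27 for these 3 lists. The heat shock means were moved most by Hspb1 (-7.60, dim, and 0.12) and Hsp90aa1 (1.44 and 5.96). Of the neural stem cell and radial glia markers, 3 were dim on glioma array 1 and 0 on array 2. Those were Sox2 (-7.55 and 2.28), Prom1 (-6.27 and -1.34) and Pax6 (-6.59 and -4.02), which lowered the mean on array 1. The part of these measures in the differences between arrays was not tested.

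Over the 9 arrays the genes fell into sets with like profiles, described here without a test since the arrays share groups and slides. The closest pair was Egr1 with Egr2 (Pearson r = 0.952, 9 arrays), followed by Fos with Atf3 (0.940), Junb with Atf3 (0.940) and Fos with Junb (0.932). Nr4a1 was the least like the others, with r of -0.42 with Dusp1, -0.35 with Jun, -0.34 with Junb and -0.18 with Atf3. Its r was -0.15 with Fos and -0.017 with Ier2, but 0.53 with Egr2, 0.51 with Egr1 and 0.20 with Fosb. Among 13707 genes well above background on all arrays, those nearest to the mean profile of the 10 genes were Dhrs7 (r = 0.944), Apbb2 (0.941), Sh3bgr (0.940), Hfe (0.939) and Itgb4 (0.929). Nearest to Fos alone were Ahr, the aryl hydrocarbon receptor (0.976), Wwc2 (0.975) and Abhd16a (0.973).

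**Figure D5:**
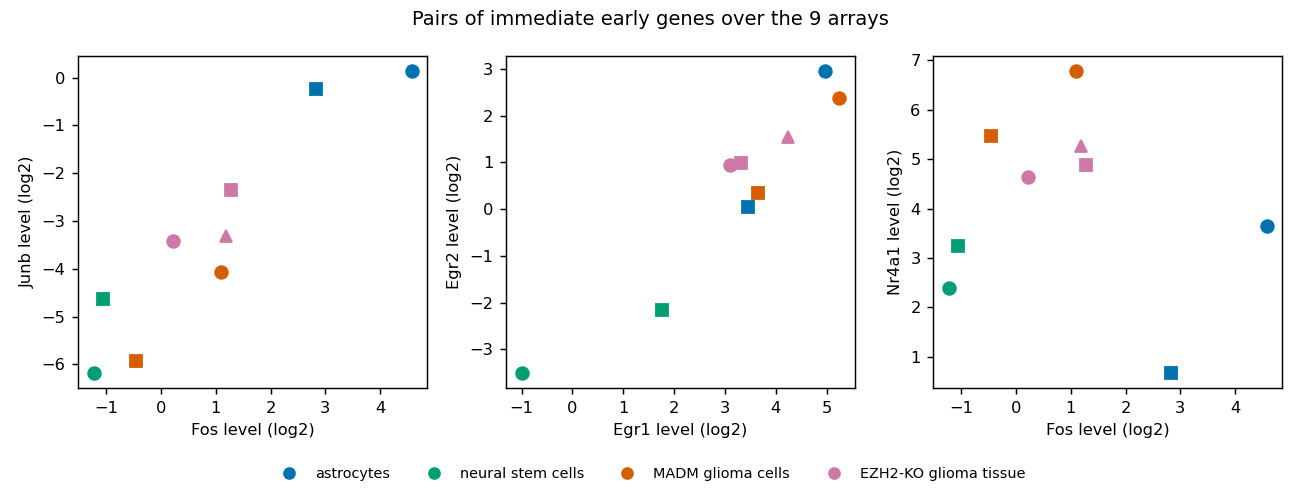
Levels of 3 pairs of immediate early genes on the 9 arrays, in log2 units on both axes; 1 point per array, coloured by group and shaped by array number. Junb runs with Fos (r = 0.932) and Egr2 with Egr1 (r = 0.952), while Nr4a1 does not run with Fos (r = -0.15).

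The counts for the lists that follow stand beside the shares of all genes called: 9.84% lower and 9.01% higher in glioma cells, 7.85% and 6.75% in NSC and 12.4% and 10.6% in tissue against astrocytes, and 9.9% and 8.08% in tissue against NSC. In tissue against glioma cells 16.9% were called in either direction, and 46.2% of those were higher. Of the other immediate early genes, 7 of 25 tested fell and 2 rose in glioma cells against astrocytes. The matricellular genes Ccn2 and Ccn1 fell by 10.95 and 7.09 (limma adjusted p = 0.00296 and 0.00607), with Ccn2 well above background on 1 of 2 glioma arrays and at -10.55 with the dim array raised as for Junb. Zfp36, which destabilises short-lived mRNAs, was well above background on 0 of 2 glioma arrays and at least 11.6-fold lower (limma adjusted p = 0.00334). Zfp36 was well above background on all arrays of a group only in astrocytes, where it was highest, and it was tested on that ground. The median of the list was -1.11, and 0.15 over all genes. Myc rose by 2.87 and Dusp2, a phosphatase of MAP kinases, by 3.43 (limma adjusted p = 0.00678 and 0.0336). In NSC against astrocytes 8 fell, led by Ccn2 (-8.12), Ccn1 (-5.72) and Zfp36 (at least 13.2-fold lower), and 1 rose, Myc at 2.54. In tissue against astrocytes 6 of 26 fell, led by Ccn2 (-4.57), Ccn1 (-4.21) and Btg2 (-4.17), and 4 rose, led by Dusp2 (3.37), Trib1 (1.84) and Homer1 (1.69).

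Against NSC, tissue had 4 of the other immediate early genes higher, led by Ccn2 (3.54), Trib1 (2.61) and Ier3 (2.58), and 2 lower, Btg2 (-3.56) and Myc (-1.36). Against glioma cells it had Ccn2 (6.37, or 5.97 with the dim glioma array raised) and Ccn1 (2.88) higher and Myc (-1.69) lower. Between glioma cells and NSC 0 of 25 were called by limma, and 4 passed at an unadjusted p under 0.05.

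Few of the factors that read the signal were called. Of 20 regulators, among them serum response factor, its Elk and myocardin-related partners, CREB, its coactivators and the MAP and RSK kinases, 0 were called by limma among the cell groups. At an unadjusted limma p under 0.05, 3 passed in glioma cells and 2 in NSC against astrocytes, and 1 in glioma cells against NSC. In tissue the coactivator Crtc3 was lower than in each cell group, by 1.96 against astrocytes, 1.43 against NSC and 1.09 against glioma cells, and Creb1 was higher than in astrocytes by 1.68 (limma adjusted p = 0.0153). Medians of this list lay between -0.09 and 0.20 in all 6 comparisons.

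Of 14 other bZIP partners of AP-1, 3 fell in glioma cells against astrocytes, Maf (-4.98), Atf7 (-3.30) and Fosl2 (-2.97), and 4 in NSC, led by Fosl2 (-3.90) and Atf7 (-2.83), with Batf at least 8.74-fold lower. Among the cell groups Batf was well above background on all arrays only in astrocytes, and it was tested there on that ground. In tissue against astrocytes Atf7 (-3.75), Maf (-3.08) and Fosl2 (-2.53) fell and Jdp2 (1.22) rose. In tissue 4 were called higher than in NSC, among them Jdp2 (1.52) and Batf, at least 8.33-fold. Batf was the 1 called higher in tissue than in glioma cells, by 3.70 as measured and 2.79, or 6.94-fold, with the dim glioma array raised. List medians were -0.91, -1.64 and -0.64 against astrocytes for glioma cells, NSC and tissue, beside 0.15, 0.21 and -0.06 over all genes.

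Of 19 feedback inhibitors, Zfp36 and Socs3 (-3.27), a suppressor of cytokine signalling, fell in glioma cells against astrocytes, and Dusp2 rose. In NSC Zfp36 and Socs3 (-3.66) fell. In tissue Zfp36 (-4.04, and -3.42 with the 2 dim arrays of 3 raised), Socs3 (-3.02) and Zfp36l1 (-1.64) fell against astrocytes, and Spry1 (4.64), Dusp2 (3.37) and Dusp8 (1.38) rose. Against glioma cells tissue was lower for Spry4 (-4.08), a brake on receptor tyrosine kinase signalling, and Nab1 (-1.31), a corepressor of Egr1 and Egr2.

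Of 13 genes with known AP-1 sites that were tested, 4 fell in glioma cells and 4 in NSC. Those were Timp1 (-7.78 and -5.77), Hmox1 (-4.55 and -3.82), Cd44 (-3.42 and -3.25) and Plau, at least 2.95-fold and 3.36-fold lower. In tissue 5 fell against astrocytes, led by Mmp3 (-5.75, and -5.53 with the 2 dim tissue arrays of 3 raised), Timp1 (-4.77) and Cd44 (-4.26). Plau and Mmp3 were well above background on all arrays of a group only in astrocytes, and were tested on that ground. Tissue had higher Plaur than glioma cells (3.82) and NSC (3.47), and Plau, well above background on 1 of 3 tissue arrays, was at least 1.45-fold higher than in glioma cells. List medians were -3.44, -3.25 and -1.55 against astrocytes for glioma cells, NSC and tissue, beside 0.15, 0.21 and -0.06 over all genes.

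Markers of other cell types differed between the groups beside these results. Of 16 microglia and macrophage markers, 15 were called lower in glioma cells and 14 in NSC than in astrocytes, and 0 were called by limma between tissue and astrocytes, where 1 passed at an unadjusted p under 0.05. Their mean level was 2.99 and 3.45 in astrocytes, 2.89 to 4.09 in tissue, -4.31 and -3.96 in glioma cells, and -0.72 and -2.49 in NSC. Aif1, C1qa, C1qc, Ctss, Cx3cr1, Laptm5 and Trem2 were well above background on 0 of 2 glioma arrays. Of 12 endothelial and pericyte markers, 7 were called higher in tissue than in glioma cells, 8 than in NSC and 6 than in astrocytes, and their mean level was -0.75 to -0.078 in tissue and -4.69 to -2.56 on cell arrays. Of 4 red blood cell transcripts 3 were called higher in tissue in each of those comparisons, with means of -0.59 to 2.22 in tissue and -5.10 to -4.27 on cell arrays. The 11 fibroblast and meningeal markers averaged 1.61 and 4.98 in astrocytes, -0.63 to 1.04 in tissue, -1.63 and -2.86 in glioma cells, and -0.24 and -1.38 in NSC. In tissue the highest of these were Pdgfra (5.14 to 6.28), also on the oligodendrocyte precursor list, and Thy1 (4.13 to 6.31). Col1a1, Col3a1, Lum and Ogn were negative on every tissue array. Their part in the differences between groups was not tested.

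The labelled cell types were set against their defining markers. The 13 astrocyte markers averaged 4.17 and 3.11 in astrocytes and -0.31 and -0.55 in glioma cells. They averaged 3.27 and 0.33 in NSC and 2.32 to 3.38 in tissue. Between NSC and astrocytes 0 of the 13 were called by limma, and 3 passed at an unadjusted p under 0.05. The 10 oligodendrocyte precursor markers averaged 4.94 and 4.23 in glioma cells and -0.98 and -1.49 in astrocytes. In NSC they averaged 3.95 and 2.66, and in tissue 4.33 to 4.83. Against astrocytes 7 of these 10 were called higher in glioma cells, 8 in NSC and 9 in tissue, beside 9.01%, 6.75% and 10.6% of all genes. The 12 neural stem cell and radial glia markers averaged highest in NSC, at 3.00 and 3.20, beside 2.29 and 1.19 in astrocytes. Their averages were 0.03 and 2.05 in glioma cells, the first lowered by the dim Sox2, Prom1 and Pax6 signals, and 1.94 to 2.12 in tissue. Only 6 of the 12 were higher in NSC than in astrocytes, with a median difference of -0.34, beside 0.21 over all genes. Called higher were 3 and lower 0, beside 6.75% and 7.85% of all genes. Neuron markers averaged 1.78 to 3.28 in tissue and -1.50 to 0.21 on cell arrays. Neurons are known to raise Fos, Egr1 and Nr4a1 with activity, and the part of these cells in the tissue levels was not tested.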

How the data were processed

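The data are 9 single-colour arrays, 1 per mouse sample. The deposited scanner files hold spot intensity on a linear scale, background-subtracted within each array per the file headers and not scaled between arrays. They were written by Agilent Feature Extraction 10.7.3.1 (tissue) and 10.7.1.1 (cells) per the file headers; the submitters' processing notes name 10.7.3.1. The authors' deposited table of log2 values matched log2 processed signal within 0.01 for 99.2% to 100.0% of values, with no scaling (column medians 5.09 to 6.29), and served as an alternative.

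Outlier spots were left out, and spots of a probe averaged. The values are log2 processed signal minus each array's 75th percentile over non-control probes. Testing required a probe to be well above background on all arrays of 1 or more groups fitted, and the brightest such probe stood for its gene. Junb, dim on 1 glioma and 1 NSC array, entered the fit of the 6 cell arrays only through the astrocyte arrays, where it was highest. It entered the fit of all 9 arrays through the astrocyte and tissue arrays. Zfp36, Plau and Mmp3 entered both fits, and Batf the fit of the cell arrays, only through the astrocyte arrays. limma 3.58.1 (lmFit, eBayes; R 4.3.3) was fitted to the 6 cell arrays for comparisons among cells (3 residual degrees of freedom) and to all 9 arrays for comparisons with tissue (5 residual degrees of freedom), with no replicate block. Tests were two-sided with Benjamini-Hochberg adjustment over all genes; called means adjusted p under 0.05 and at least a 2-fold change. The fits were tested on simulated data. An "at least" fold sets the brighter group's mean against, per array of the dim group, whichever is higher of its own signal and the lowest one well above background there.

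The genes, the other lists, the naming rule (all 10 genes; per list up to 3 called genes in each direction with the largest change; 5 genes nearest to the mean profile and 3 to Fos) and the tests were chosen with earlier results of these data known. A result on 1 gene of the bZIP list is not reported here. Symbols and promoters came from RefSeq tables of GRCm38.p6. Tables and figures were made with matplotlib 3.10.9, pandas 2.3.3 and numpy 2.4.6 under Python 3.11.15. Precision is limited by the number of arrays. Deviations of arrays with the same number correlated at -0.0057 to 0.123 among cells and at -0.156 to 0.121 over all 9 arrays. With 2 arrays in each cell group, these values cannot show whether the numbers pair samples.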

Additional observations from a re-analysis of the deposited data

How the results depend on the processing

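The 13 called differences kept their direction in all 225 values from other settings and left-out arrays, and 69 of those values were not called. Called genes numbered 5 in glioma cells against astrocytes with normexp background correction and with all 9 arrays in the fit (3 as reported), Dusp1 and Nr4a1 being added in both. They numbered 7 in NSC against astrocytes with all 9 arrays (3 as reported, with Egr1, Egr2, Ier2 and Dusp1 added). In tissue against glioma cells the unscaled deposited table called 1, Junb at 2.51. In tissue against NSC 1 was called with no filter on dim probes. Leaving out 1 array gave 1 to 3 called genes for glioma cells against astrocytes, 0 to 3 for NSC against astrocytes, 0 to 3 for tissue against NSC, 1 to 4 for tissue against astrocytes, and 0 in the other 2 comparisons.

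The replicate block called 0 genes in tissue against NSC and 1 in tissue against astrocytes (3 and 4 as reported), and left the count of the 10 genes unchanged in the other comparisons. With 2 numbers shared by all groups this fit takes nothing from tissue array 3. Over all genes it called 47 in place of 244 between glioma cells and NSC, 2604 in place of 4292 in tissue against glioma cells, 2604 in place of 4566 against NSC, and 3175 in place of 5830 against astrocytes.

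Signs turned only for differences that were not called. With the unscaled deposited table Egr1 was -0.20 in glioma cells against astrocytes, Egr2 0.34 and Dusp1 0.32 in tissue against glioma cells, and Jun 0.24 and Dusp1 0.32 in tissue against NSC. Jun was 0.075 in that last comparison after quantile normalization. In tissue against glioma cells Ier2 was -0.025 with normexp on the median signal, and with the replicate block Jun was -0.045 and Ier2 -0.041. With 1 array left out the range crossed 0 as follows. In glioma cells against astrocytes it was -0.56 to 1.04 for Egr1, -1.59 to 1.32 for Egr2 and -3.33 to 0.027 for Fosb. In glioma cells against NSC it was -0.42 to 2.73 for Fosb, -0.52 to 1.35 for Junb and -0.51 to 0.58 for Dusp1. In NSC against astrocytes it was -0.83 to 2.16 for Nr4a1. In tissue against glioma cells it was -0.045 to 0.41 for Jun, -0.041 to 0.19 for Ier2, -1.22 to 0.82 for Egr2, -0.20 to 1.35 for Fos and -1.13 to 2.03 for Fosb. In tissue against NSC it was -0.73 to 0.35 for Dusp1. In tissue against astrocytes it was -2.89 to 0.47 for Fosb, -1.40 to 0.10 for Egr1 and -1.79 to 1.12 for Egr2.

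The unscaled table moved the median log2 difference of all genes by -0.44 for glioma cells against astrocytes, -0.41 for NSC against astrocytes, 0.54 for tissue against glioma cells and 0.51 for tissue against NSC. The share of called genes that were higher went from 47.8% to 30.1%, 46.2% to 24.1%, 46.2% to 79.6% and 44.9% to 77.7%. A filter on every array moved that share from 46.2% to 58.1% for NSC against astrocytes, 46.2% to 33.1% for tissue against glioma cells and 44.9% to 33.8% for tissue against NSC. All 9 arrays moved it from 67.6% to 53.0% for glioma cells against NSC. Among other processing settings, further counts over all genes that moved by over 1.5 times were 7281 in place of 4687 and 5940 in place of 3630 with each probe on its own (glioma cells and NSC against astrocytes). For glioma cells against NSC 68, 129 and 492 replaced 244 with the strict filter, no filter and all 9 arrays. For tissue against glioma cells 2765 replaced 4292 with the strict filter. With 1 array left out, all genes called ran from 2032 (without astrocyte array 2) to 4776 for glioma cells against astrocytes, 0 (without astrocyte array 1 or either NSC array; 26 without astrocyte array 2) to 299 for glioma cells against NSC, and 1231 (without NSC array 2) to 2627 for NSC against astrocytes. For tissue they ran from 1974 (without glioma array 1) to 4639 against glioma cells, 1645 (without NSC array 2) to 4250 against NSC, and 3188 (without astrocyte array 2) to 6045 against astrocytes. The percentile over all spots and normexp on the median signal were chosen after seeing the data. A slide block could not be fitted, since each slide held either tissue or cells. The cause of these moves was not tested.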

Other observations

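Heat shock genes, which handling and heat also induce, were read beside the immediate early genes. Hspa1a, the inducible Hsp70, was at -0.43 and -1.11 in astrocytes, -2.87 and -2.86 in glioma cells, -3.42 and -4.17 in NSC, and -3.39, -2.97 and -3.53 in tissue. It fell against astrocytes in glioma cells by 2.09, in NSC by 3.02 and in tissue by 2.53 (limma adjusted p = 0.0256, 0.0127 and 0.00316). The chaperone of the endoplasmic reticulum Hspa5 was lower in tissue than in astrocytes (-1.33) and glioma cells (-1.27), and the mitochondrial chaperone Hspd1 lower in tissue than in NSC (-1.37). The other members of the list of 9 tested were not called in any comparison. Against astrocytes 1 of the 9 was called lower in glioma cells, 1 in NSC and 2 in tissue, beside 9.84%, 7.85% and 12.4% of all genes. List medians were -0.17, 0.04 and -0.48, beside 0.15, 0.21 and -0.06 over all genes. Tissue had 1 lower than NSC, beside 9.9% of all genes. Whether handling differed between the groups was not tested.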
